A study of Mus musculus with 12 samples.

Results

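The nuclear genes of oxidative phosphorylation were taken as the protein-coding genes whose symbol begins with Nduf, Uqcr or Atp5, or with Cox followed by a digit from 4 to 8, together with Sdha, Sdhb, Sdhc and Sdhd. The rule gave 97 of the 56748 genes in the deposited table. Of these, 92 passed the filter on low counts and were among the 18334 genes tested. Poly-A RNA was sequenced from whole retinas of 12 mice in 4 groups of 3. The groups were JR5558 mice, an inbred line that grows new vessels beneath the retina without any intervention, and C57BL/6J wild-type controls of matching age, at 4 and 8 weeks. No treatment was named. As background, JR5558 is known to carry mutant alleles of Crb1 and Jak3, and C57BL/6J to carry a deletion in Nnt, the mitochondrial transhydrogenase. Nnt stood at 0.0523 to 0.486 CPM (counts scaled to library size, with TMM factors) across the 12 libraries, so both strains were low in it.

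Oxidative phosphorylation is the work of 5 protein complexes of the inner mitochondrial membrane. Complex I (Nduf genes) and complex II (Sdh genes) feed electrons to ubiquinone, complex III (Uqcr genes) passes them to cytochrome c, complex IV (Cox genes) reduces oxygen, and the ATP synthase (Atp5 genes) makes ATP from the proton gradient. A few subunits of complexes I, III, IV and V are encoded by mitochondrial DNA, and the others come from the nucleus. Photoreceptors pack mitochondria into their inner segments, and complex IV has paired isoforms of several subunits, one found in most tissues and the other restricted to some. By role, the 97 members were 7 core, 31 accessory and 8 assembly genes of complex I, 4 of complex II, 8 of complex III, 11 ubiquitous and 8 tissue-restricted genes of complex IV, 5 genes of the F1 head of ATP synthase and 13 of its Fo part and stalks. The other 2 were Cox7a2l, which joins complex III to complex IV in supercomplexes, and Cox5b-ps, which the table lists as protein-coding.

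Between 18029611 and 23739886 counts were assigned to genes in each retina, and the members took 0.819% to 1.11% of them. The 3 JR5558 libraries of 4 weeks held 1323 to 1846 counts of the Y-linked gene Ddx3y and 0 to 5 of Xist, while the 9 others held 0 of Ddx3y and 7772 to 22988 of Xist. Sex and strain therefore cannot be told apart at 4 weeks, nor sex and age within JR5558, nor sex and a change of the strain difference with age. Rod markers summed to between 49190 and 60500 CPM in every library. The 8 pigment epithelium markers, by contrast, summed to 65.5 to 254.6 CPM in the control retinas and to 281.8 to 528.1 CPM in the JR5558 retinas. In whole retina, fewer cells of a type and less RNA per cell cannot be told apart.

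The pair of sequences below carries the largest value among the members. They show coding bases 51 to 135 (85 bases, counted from the A of the start codon) of Ndufs5, on chromosome 4, and the matching stretch of its processed copy Ndufs5-ps, on chromosome 16, from the GENCODE M21 transcripts. The 2 bases that differ are in capitals.
Ndufs5: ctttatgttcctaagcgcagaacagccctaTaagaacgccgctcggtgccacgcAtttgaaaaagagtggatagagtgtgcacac
Ndufs5-ps: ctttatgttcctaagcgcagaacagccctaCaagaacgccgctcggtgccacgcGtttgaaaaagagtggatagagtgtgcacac
Over 319 aligned bases the copy was 99.4% identical to Ndufs5, with 2 differences, T81C and A105G, in which the first letter is the base of Ndufs5.

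Promoter sequence is given next, because NRF1 and GABP are textbook regulators of many of these genes. RefSeq promoters on GRCm38.p6 (300 bases, from 250 before to 50 after the start) were found for 78 of the 97 members, as 82 promoters of 77 RefSeq genes. Excerpts of 200 bases, from 170 before the start, are given for the main Cox8 isoform, for its restricted paralogue Cox8b and for Atp5e, which stand out in the strain comparison, and for Cox6a1 as a highly expressed member with several matches. Capitals mark letters matched on either strand.
Cox8a chr19:7217587-7217786 minus strand: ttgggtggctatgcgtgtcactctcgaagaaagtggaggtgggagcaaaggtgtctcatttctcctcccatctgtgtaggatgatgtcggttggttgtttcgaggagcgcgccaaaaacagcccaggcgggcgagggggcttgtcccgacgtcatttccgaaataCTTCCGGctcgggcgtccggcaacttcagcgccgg
Cox8b chr7:140900417-140900616 minus strand: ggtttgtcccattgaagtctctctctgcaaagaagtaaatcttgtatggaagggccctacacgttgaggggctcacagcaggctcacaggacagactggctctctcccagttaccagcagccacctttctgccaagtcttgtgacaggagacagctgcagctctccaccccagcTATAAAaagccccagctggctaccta
Atp5e chr2:174464072-174464271 minus strand: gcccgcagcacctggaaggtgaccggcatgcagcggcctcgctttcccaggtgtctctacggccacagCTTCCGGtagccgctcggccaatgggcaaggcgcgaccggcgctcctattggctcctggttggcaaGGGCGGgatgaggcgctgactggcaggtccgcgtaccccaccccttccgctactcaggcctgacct
Cox6a1 chr5:115348929-115349128 minus strand: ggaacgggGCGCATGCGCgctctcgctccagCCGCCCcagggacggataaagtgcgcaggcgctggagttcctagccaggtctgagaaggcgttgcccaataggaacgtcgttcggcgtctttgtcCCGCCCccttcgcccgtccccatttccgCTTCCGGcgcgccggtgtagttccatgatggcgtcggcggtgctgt
The letters searched were GCGCATGC (NRF1), CCGGAAG (ETS factors such as GABP), AAGATGGC (YY1), GGGCGG (Sp1) and TATAAA (the TATA box). The NRF1 letters stood in 14.6% of the member promoters against 2.71% of all 32851 promoters in the table. For the ETS letters the shares were 23.2% and 8.86%, for the YY1 letters 13.4% and 2.75%, and for the Sp1 letters 43.9% and 35.7%. TATAAA went the other way, at 11.0% of member promoters and 13.6% of all. In these excerpts the 3 widely expressed genes carried ETS or Sp1 letters, and Cox8b carried TATAAA and none of the other 4. The excerpts were chosen, and this contrast does not hold across the members. The same stretch held none of the letters in Sdha, Uqcrc1 and Ndufa4, nor in the restricted isoform Cox7a1, and it held TATAAA in the core subunit Ndufs7. The 32851 promoters were not matched to the members for gene class, level or share of G and C. Any part of these in the shares of letters was not tested. A match describes letters, not binding.

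The levels of the members spanned a wide range in FPKM (fragments per kilobase of gene length, scaled to library size, as deposited), a scale on which different genes can be compared. The median FPKM of the 92 tested members was 42.2, against 4.06 for all genes tested. Cox8a, the small subunit VIII of complex IV, was the highest at 356.2 FPKM, followed by Atp5b, the catalytic beta subunit of ATP synthase, at 299.2 FPKM. Within F1 the lowest was Atp5e, the epsilon subunit of the rotor, at 28.7 FPKM. In complex I, Ndufs1 was the lowest of the core subunits at 13.4 FPKM, and Ndufb11, an X-linked accessory subunit, reached 117.7 FPKM. The complex I assembly factors formed a lower tier, from Ndufaf2 at 4.09 FPKM to Ndufaf5 at 21.3 FPKM. Sdha, the flavoprotein of complex II, stood at 91.6 FPKM and Sdhb, its iron-sulfur subunit, at 27.2 FPKM. Complex III ran from the core protein Uqcrc1 at 51.4 FPKM to Uqcr10 at 116.6 FPKM. Among the ubiquitous complex IV subunits Cox5a was lowest at 29.8 FPKM, and in the Fo part and stalks Atp5h was highest at 90.5 FPKM.

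**Figure D1:**
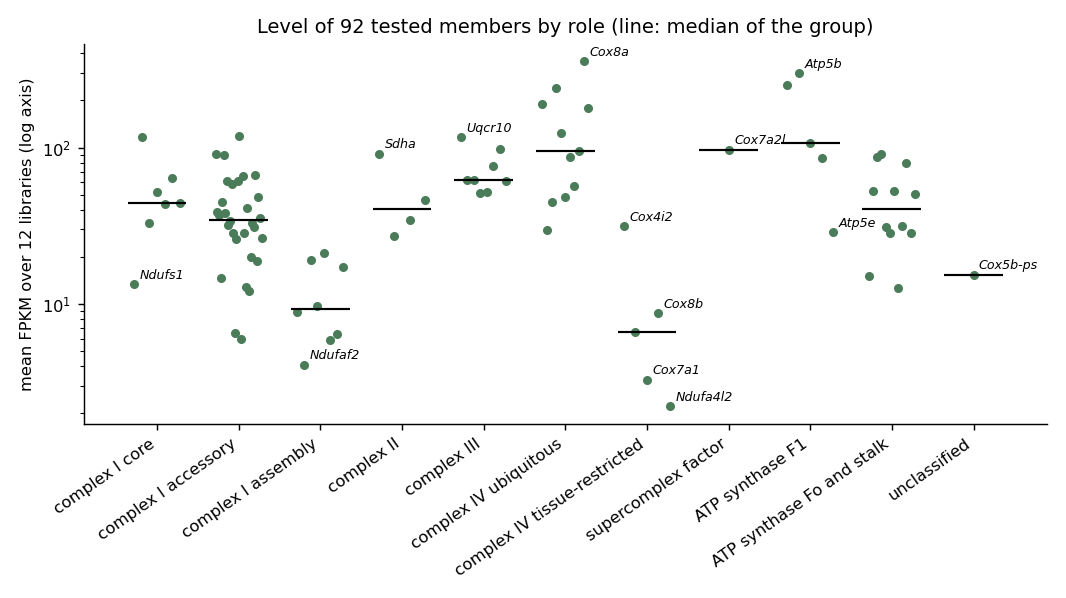
Each point is 1 tested member, placed by its role and by its deposited FPKM averaged over the 12 libraries, on a log axis, with a line at the median of each role. Tissue-restricted complex IV isoforms and complex I assembly factors lie lowest, and Cox8a (356.2 FPKM) and Atp5b (299.2 FPKM) highest.

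Each restricted isoform of complex IV was the minor member of its pair. Cox4i2, an isoform of subunit IV tied to lung and low oxygen, made up 12.1% to 17.97% of the length-scaled counts of Cox4i1 and Cox4i2 together. Cox6b2, known from testis, made up 2.78% to 7.14% of its pair with Cox6b1. Cox7a1, the heart and muscle form, made up 2.03% to 5.502% of its pair with Cox7a2, and Ndufa4l2, a hypoxia-induced relative of Ndufa4, 0.805% to 1.57% of its pair. Of the 3 genes for subunit c of the Fo ring, Atp5g3 (86.8 FPKM) and Atp5g2 (52.4 FPKM) exceeded Atp5g1 (15.1 FPKM). Of these genes Cox7a2 passed the threshold between strains, at 8 weeks. Cox4i2, Cox6b2, Cox7a1, Ndufa4l2, their partners Cox4i1, Cox6b1 and Ndufa4, and the 3 subunit c genes did not pass at either age.

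Below the filter were 5 members. Cox6a2, the muscle form of subunit VIa, had 0 to 15 counts per library, Cox7b2 0 to 3, Cox8c 0 to 2 and Ndufb11b 0 to 1, and a second identifier named Atp5o had 0 counts in all 12 libraries. A count of 0 in 1 library allows up to 3 counts, for counting error alone.

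Most members differed little between the strains. At 4 weeks 86 of 92 were within 1.25-fold, or 93.5% against 72.2% of all genes tested, and at 8 weeks 76, or 82.6% against 73.7%. With age the shares were 96.7% against 77.1% in C57BL/6J and 70.7% against 74.8% in JR5558. Members also had higher levels than most genes and a smaller spread within groups (median SD of log2 CPM 0.156 against 0.182). The part of level and spread in these shares was not tested. With edgeR's quasi-likelihood test and a Benjamini-Hochberg adjusted p under 0.05, 3 members passed at 4 weeks, Ndufs5 and Atp5e lower and Cox8b higher in JR5558, or 3 of 92 against 6.16% of all genes tested (3.27% higher, 2.9% lower). At 8 weeks 4 passed, the same 3 in the same directions and Cox7a2, higher, against 5.18% of all genes (2.54% higher, 2.63% lower). The unadjusted p was under 0.05 for 14 members at each age, or 15.2% of them, against 19.1% of all genes at 4 weeks and 17.4% at 8 weeks. The members had median log2 fold changes of 0.04 (4 weeks) and 0.07 (8 weeks), where the medians of all genes were -0.0012 and -0.0007. Log2 fold changes were above 0 for 58 members (63.0%) at 4 weeks and 68 (73.9%) at 8 weeks, against 49.8% and 49.9% of all genes. For 892 protein-coding genes of at most 1500 bases outside the set the medians were 0.03 and 0.11, with 54.9% and 64.35% above 0. For 6374 of at least 5000 bases they were -0.03 and -0.02, with 44.1% and 45.0% above 0.

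**Figure D2:**
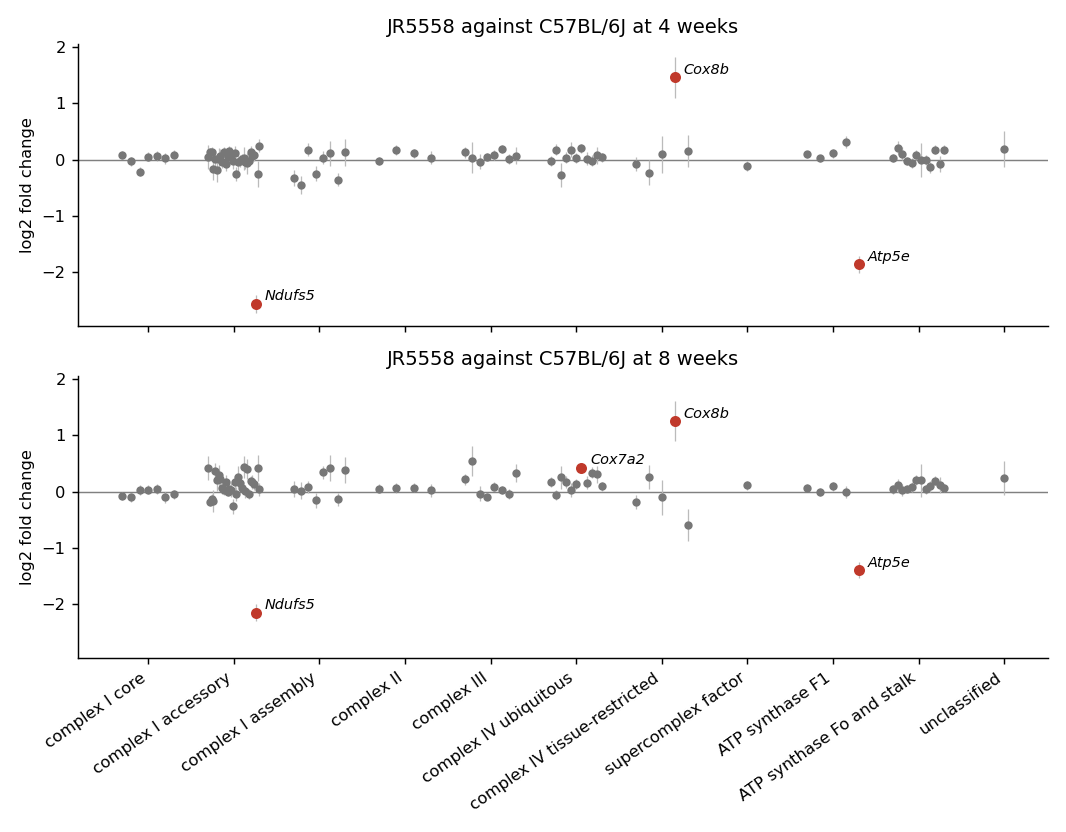
Log2 fold change of JR5558 against C57BL/6J for the 92 tested members by role, at 4 weeks (top) and 8 weeks (bottom), with standard errors as grey bars. Red points passed an adjusted p of 0.05: Ndufs5 and Atp5e lie far below 0 and Cox8b above 0 at both ages, and most other members sit near 0.

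By role, complex II and the core of complex I showed no called member at either age, where 6.16% (4 weeks) and 5.18% (8 weeks) of all genes were called. At those shares groups of this size would hold few or no calls, so the counts do not tell the roles apart. The 7 core genes had medians of 0.05 (4 weeks) and -0.05 (8 weeks) on the log2 scale, and the 4 complex II genes of 0.08 and 0.06. The 8 genes of complex III ranged from -0.03 to 0.19 at 4 weeks and from -0.09 to 0.55 at 8 weeks, with none called. In the Fo part and stalks none of 12 tested genes was called. The 11 ubiquitous complex IV genes had a median of 0.04 at 4 weeks and 0.17 at 8 weeks, with 1 called at 8 weeks. The 8 assembly factors ran from -0.45 (Ndufaf2) to 0.18 at 4 weeks, with none called. By the adjusted p of the authors' deposited table, from a test not named in the file headers, there was 1 member higher and 2 lower at 4 weeks, of 95 with a value, where that table has 1.43% of its genes higher and 1.29% lower. At 8 weeks it has 18 members higher and 4 lower, of 93, and 3.57% of its genes higher and 4.05% lower. A fit of only the 8-week groups called 19 members and 12.5% of all genes, and a fit with no filter on low counts 14 members and 6.88% of the same 18334 genes, so the number called at 8 weeks depended on these choices. At 4 weeks it depended on the library C57BL/6J 4-week replicate 3, without which 6 members and 6.16% of all genes were called and the members' median was -0.07. Rod markers moved with the strain at 8 weeks, with sums of 58220 to 60500 CPM in the controls and 51090 to 52910 CPM in JR5558 and 2 of 5 called lower, and their part in the members' values was not tested.

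Ndufs5, an accessory subunit on the intermembrane side of complex I, had the largest fold change of the set. The deposited table places Ndufs5 (ENSMUSG00000028648) at bases 123606503 to 123611995 of chromosome 4, Atp5e (ENSMUSG00000016252) at 174302865 to 174305898 of chromosome 2, Cox8b (ENSMUSG00000025488) at 140478858 to 140480359 of chromosome 7 and Cox7a2 (ENSMUSG00000032330) at 79662643 to 79667160 of chromosome 9, all on the minus strand. These positions differ from the GRCm38.p6 promoters above and their build is not settled. Its level was 77.8, 64.0 and 57 CPM in the C57BL/6J retinas of 4 weeks and 9.12, 9.83 and 14.6 CPM in those of JR5558. At 8 weeks the values were 70.1, 69.4 and 78.5 CPM against 16.6, 14.2 and 18.2 CPM. Every JR5558 library lay below every C57BL/6J library. The log2 fold change was -2.57 ± 0.16 (standard error, n = 3 per group) at 4 weeks (adjusted p = 1.32e-09), or 5.93-fold lower, and -2.16 ± 0.15 at 8 weeks (adjusted p = 1.18e-08), or 4.46-fold lower. The processed copy shown above went the opposite way. Ndufs5-ps had 8 counts over the 3 C57BL/6J libraries of 4 weeks and 3010 over those of JR5558, and 23 and 4061 at 8 weeks, with log2 fold changes of 8.36 ± 0.30 (adjusted p = 8.68e-13) and 7.30 ± 0.26 (adjusted p = 6.85e-13). The copy made up 0.0715% to 0.945% of the summed counts of gene and copy in C57BL/6J, and 77.1% to 82.4% in JR5558. The sum of both overlapped between the strains, at 57.1 to 77.9 CPM against 51.8 to 71.5 CPM at 4 weeks and 69.6 to 79.2 CPM against 72.3 to 87.7 CPM at 8 weeks. With the counts of copies added to their members, an alternative chosen after seeing the data, Ndufs5 was at -0.18 ± 0.13 (adjusted p = 0.496) at 4 weeks and 0.12 ± 0.13 (adjusted p = 0.689) at 8 weeks. Where the reads of each of these near-identical genes arose was not tested, and the fold change of Ndufs5 on its own is uncertain.

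**Figure D3:**
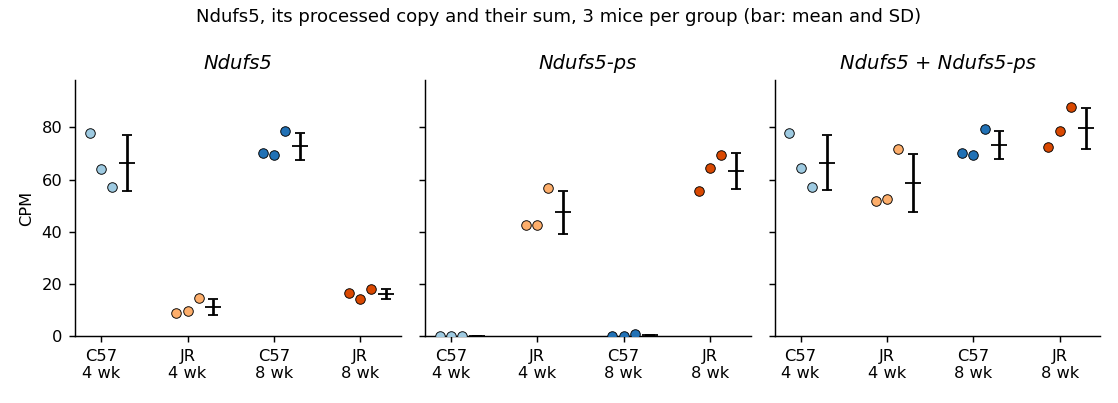
CPM of Ndufs5, of its processed copy Ndufs5-ps and of their sum in each of the 12 retinas (points, 3 per group), with mean and SD beside them. Ndufs5 is low and the copy high in JR5558, and the sums overlap between strains, from 51.8 to 87.7 CPM.

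Other members have copies of this kind too. A copy was counted where an annotated pseudogene matched a member's transcript at 95% identity or more over at least 150 bases and 50% of the shorter transcript. There were 46 such copies of 24 members, of which 20 had enough counts to be tested and 8 had 0 counts. Between strains Ndufs5-ps was the 1 copy called, higher at both ages, and 0 were called lower (edgeR, adjusted p under 0.05). With copies added, Cox7c, a ubiquitous complex IV subunit, passed at 8 weeks (log2 fold change 0.35 ± 0.10, adjusted p = 0.0487) where alone it did not (0.34 ± 0.10, adjusted p = 0.0537).

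Atp5e, the epsilon subunit in the rotor of F1, was lower in JR5558 at both ages. It was measured at 87.06, 80.01 and 55.31 CPM in C57BL/6J and 17.5, 19.5 and 24.2 CPM in JR5558 at 4 weeks. At 8 weeks it was at 74.5, 83.1 and 78.7 CPM and 27.0, 30.5 and 32.0 CPM. The groups did not overlap at either age. The log2 fold change was -1.86 ± 0.15 (adjusted p = 5.95e-08), or 3.64-fold lower, and -1.40 ± 0.14 (adjusted p = 2.43e-06), or 2.64-fold lower. For Atp5e 0 annotated pseudogenes met the criteria for a copy, and no deposited gene span overlapped those of Atp5e, Ndufs5, Cox8b or Cox7a2. Copies of other kinds, shorter matches and sequence particular to JR5558 lay outside this search. Where the reads of Atp5e arose was therefore not tested, and its fold change carries that limit. Without any 1 of the 6 libraries compared, the adjusted p stayed between 2.41e-10 and 1.57e-06 at 4 weeks and between 1.73e-05 and 3.62e-05 at 8 weeks. The other subunits of the F1 head were not called. Atp5a1, Atp5b, Atp5c1 and Atp5d had log2 fold changes of 0.09, 0.02, 0.12 and 0.31 at 4 weeks and 0.07, -0.01, 0.10 and -0.01 at 8 weeks.

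Cox8b, the heart and skeletal muscle isoform of subunit VIII, was higher in JR5558. At 4 weeks it was at 1.67, 1.65 and 1.46 CPM in C57BL/6J and 5.49, 2.72 and 4.96 CPM in JR5558. At 8 weeks it was at 3.13, 1.05 and 1.66 CPM against 4.47, 3.28 and 6.34 CPM. Levels were low but did not overlap at either age. The log2 fold change was 1.47 ± 0.36 (adjusted p = 0.0184) at 4 weeks and 1.25 ± 0.35 (adjusted p = 0.0462) at 8 weeks, 2.77-fold and 2.38-fold. Against its ubiquitous partner Cox8a, Cox8b made up 1.42% ± 0.27 (SD, n = 3) of the length-scaled counts of the pair in C57BL/6J and 3.58% ± 1.42 in JR5558 at 4 weeks, and 1.53% ± 0.85 and 2.89% ± 0.72 at 8 weeks. Cox8a itself was not called (log2 fold change 0.08 and 0.31). The call for Cox8b at 4 weeks was lost when control replicate 2 (adjusted p = 0.0574) or JR5558 replicate 1 (0.0726) was left out. At 8 weeks it was lost when control replicate 2 (adjusted p = 0.192), control replicate 3 (0.153), JR5558 replicate 1 (0.0908) or JR5558 replicate 3 (0.266) was left out.

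Markers of other cell types also differed between the strains. Of 8 pigment epithelium markers 7 were called higher in JR5558 at 4 weeks and 1 at 8 weeks, none was at 0 throughout, and their mean log2 CPM lay between 2.41 and 3.91 in the controls and between 4.31 and 4.95 in JR5558. With that score as a covariate Cox8b was at 0.72 (adjusted p = 0.652) at 4 weeks and 0.74 (adjusted p = 0.528) at 8 weeks, while Ndufs5, Atp5e and Cox7a2 stayed past the threshold. The score did not overlap between the strains, so in this fit it stands in part for strain itself. Over all genes, 1.47% were called with the score at 4 weeks and 2.16% at 8 weeks, against 6.16% and 5.18% without it. The loss of the Cox8b call therefore cannot be credited to these cells. The 7 skeletal muscle markers summed to 6.26 to 6.8 CPM in the controls and 6.85 to 8.79 CPM in JR5558 at 4 weeks, and to 5.08 to 6.35 and 5.64 to 6.72 CPM at 8 weeks. Of these markers 3 had enough counts to be tested, and 0 were called. The muscle myosin genes Myh1 and Myh4 were at or near 0, with 0.106 and 0.261 CPM as their highest values. Among pericyte and smooth muscle markers, which summed to 113.2 to 147.8 and 132.2 to 173.5 CPM at 4 weeks, 1 of 7 was called higher at that age, Pdgfrb. At 8 weeks, where Cox8b was also higher in JR5558, the pericyte and smooth muscle sums were 108.6 to 117.9 CPM in the controls and 102.9 to 109.8 CPM in JR5558, with 0 called. The 3 Müller glia markers summed to 2921 to 3449 and 3294 to 3946 CPM at 4 weeks, with 2 called higher, and to 3218 to 3526 and 4128 to 4325 CPM at 8 weeks, with 1 called higher. The 3 microglia markers summed to 13.7 to 15.8 and 18.6 to 22.4 CPM at 4 weeks and to 13.9 to 18.1 and 21.3 to 26.6 CPM at 8 weeks, with 1 called higher at each age. Any part of these cells in the Cox8b result was not tested further.

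Cox7a2, the subunit VIIa form of most tissues, was higher in JR5558 at 8 weeks. It was at 73.6, 75.1 and 77.9 CPM in C57BL/6J and 95.2, 97.7 and 111.8 CPM in JR5558. The groups were apart, and the log2 fold change was 0.43 ± 0.08 (adjusted p = 0.00237), or 1.34-fold. At 4 weeks the groups also did not overlap, at 67.5 to 75.4 against 81.8 to 83.9 CPM, with a log2 fold change of 0.20 ± 0.08 that did not pass (adjusted p = 0.162). For Cox7a2 the strain difference was greater at 8 weeks by 0.22 ± 0.11 on the log2 scale, which did not pass (adjusted p = 0.713). This test of interaction takes in the JR5558 libraries of 4 weeks, so sex cannot be told apart from it. For all members together, 0 of 92 passed that test of interaction against 0.0927% of all genes, with 5 members (5.43%) and 7.19% of all genes at an unadjusted p under 0.05. DESeq2 called 0 members there as well and 0.353% of all genes, and a fit with no filter 2 members and 0.524% of the same genes.

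With age, most members were slightly higher at 8 weeks in both strains. In C57BL/6J 83 of 92 had a log2 fold change above 0, against 50.1% of all genes, with a median of 0.15. In JR5558 82 of 92 were above 0, against 48.5% of all genes, with a median of 0.17. Few single members passed the test: 0 in C57BL/6J, against 0.431% of all genes, and 4 in JR5558, all higher, against 1.51% of all genes (0.676% higher). In C57BL/6J 15 members (16.3%) and 14.4% of all genes had an unadjusted p under 0.05, and DESeq2 called 2 members and 3.24% of the genes it tested. In JR5558, 30 members (32.6%) and 16.9% of all genes had an unadjusted p under 0.05. There DESeq2 called 11 members and 4.86% of the genes it tested, a fit of only the JR5558 groups called 17 members and 3.11% of all genes, and by the adjusted p of the authors' deposited table there were 23 higher and 0 lower of 94, against 2.15% and 1.61% of its genes. All age values use the same 4-week libraries as the strain comparison of that age.

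The 4 members called with age in JR5558 came from different roles. Ndufaf2, an assembly factor that binds a late intermediate of complex I, rose from 9.32, 8.26 and 7.86 CPM at 4 weeks to 13.9, 14.3 and 15.6 CPM at 8 weeks (log2 fold change 0.78 ± 0.16, adjusted p = 0.0181). It was at 12.4, 14.1 and 8.37 CPM in C57BL/6J at 4 weeks and at 13.5 to 14.97 CPM at 8 weeks, so the 4-week JR5558 libraries and 1 C57BL/6J library were the low ones. Ndufaf2 overlaps Smim15 on the other strand and a long noncoding gene on its own strand, and its counts are uncertain for that reason. Cox7a2l, the supercomplex factor, rose from 122.0, 126.0 and 130.9 CPM to 151.0, 161.0 and 179.3 CPM (0.37 ± 0.08, adjusted p = 0.0232). Ndufs3, a core subunit of the arm that faces the matrix, rose from 56.0, 64.8 and 63.9 CPM to 76.5, 76.5 and 83.7 CPM (0.36 ± 0.08, adjusted p = 0.0360). Cox7c rose from 96.8, 94.5 and 104.3 CPM to 124.3, 117.8 and 150 CPM (0.41 ± 0.10, adjusted p = 0.0416). None of the 4 overlapped between the ages in JR5558. In C57BL/6J the same genes were at 0.32, 0.15, 0.11 and 0.05, none past the threshold, and none passed the test of interaction (adjusted p from 0.571 to 0.713).

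**Figure D4:**
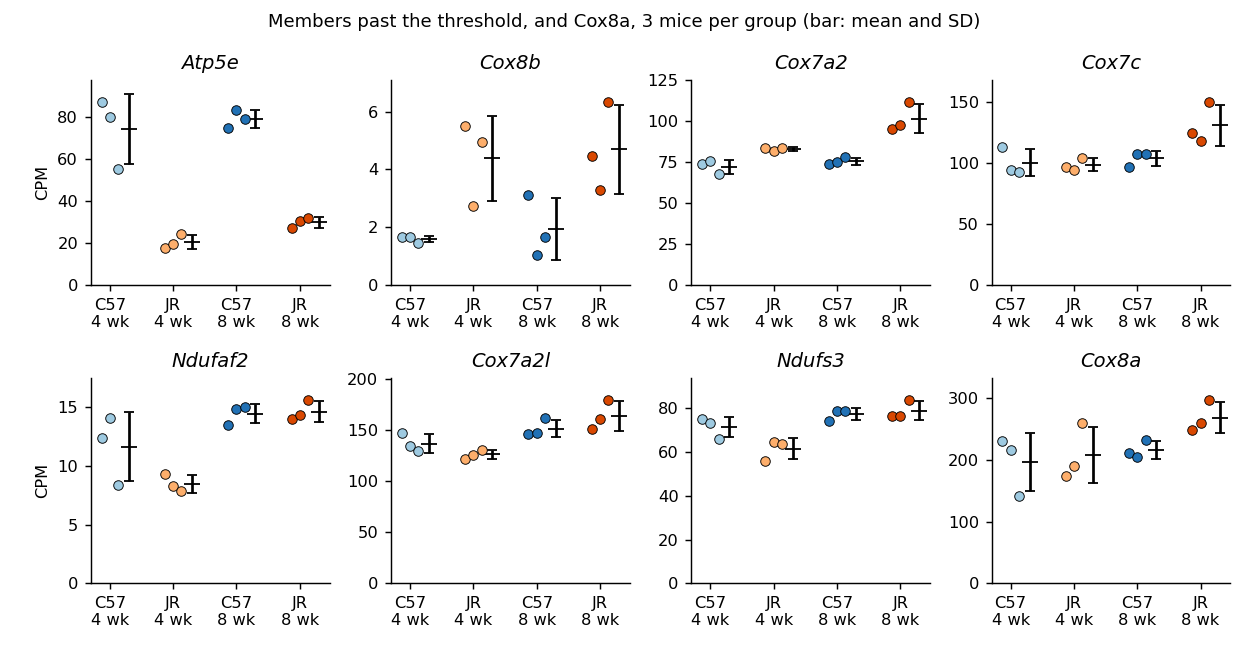
CPM in each retina (points, 3 per group, with mean and SD) for 7 members past the threshold in a strain or age comparison and for Cox8a. Atp5e is low in JR5558 at both ages, Cox8b and, at 8 weeks, Cox7a2 are high, and Ndufaf2, Cox7a2l, Ndufs3 and Cox7c are higher at 8 than at 4 weeks in JR5558.

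These age calls changed with the libraries fitted, while the fold changes kept their direction in all 6 fits that left 1 out. The log2 fold change lay between 0.73 and 0.87 for Ndufaf2, 0.31 and 0.44 for Cox7a2l, 0.30 and 0.40 for Ndufs3 and 0.30 and 0.49 for Cox7c. Leaving out JR5558 4-week replicate 2, 8-week replicate 2 or 8-week replicate 3 left 0 members called with age, leaving out 4-week replicate 1 left 1, leaving out 8-week replicate 1 left 2, and leaving out 4-week replicate 3 gave 11. The share of all genes called was 0.334% to 0.776% in the first 5 of these fits and 3.66% in the last. Adjusted p over these fits ran up to 0.117 for Ndufaf2, 0.186 for Cox7a2l, 0.234 for Ndufs3 and 0.291 for Cox7c. In C57BL/6J the median with age was 0.04 without 4-week replicate 3 and 0.22 without 4-week replicate 1.

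Libraries of 1 group differed in the members as a set. The median deviation of the 92 members from their mean log2 CPM was lowest in C57BL/6J 4-week replicate 3, at -0.26, and highest in JR5558 8-week replicate 3, at 0.24. The first of these libraries held the lowest value of the 12 for 55 of 92 members, or 59.8% against 18.3% of all genes, and the second the highest value for 65, or 70.7% against 10.5% of all genes. Uqcr11, a small subunit of complex III, was at 14.3 CPM in C57BL/6J 4-week replicate 3 beside 47.5 and 36.6 CPM in the other two, and Atp5k, a small Fo subunit, at 9.74 beside 39.7 and 38.2 CPM. Ndufs1, the largest core subunit, with a gene length of 8086 bases in the table, was at 109.4 CPM there beside 108.3 and 99.5 CPM. Members were short, with a median gene length of 1578 bases against 3838 for all genes tested. In that library the 43 members of at most 1500 bases had a median deviation of -0.42 and the 49 longer ones -0.14.

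Genes outside the set were compared by length. The 892 protein-coding genes of at most 1500 bases outside the set ran from -0.26 to 0.25 over the same 2 libraries, and 6374 genes of 5000 bases or more from 0.09 to -0.07. With age the median log2 fold change in C57BL/6J was 0.15 for the members, 0.13 for the other short genes, 0.17 for 92 cytosolic ribosomal protein genes and -0.07 for the long genes. In JR5558 these medians were 0.17, 0.19, 0.24 and -0.07. Among members, the median with age in JR5558 was 0.27 for those of at most 1500 bases and 0.12 for the longer ones, and between strains at 8 weeks 0.17 and 0.04. The part of gene length in the age and strain values was not tested beyond these values.

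**Figure D5:**
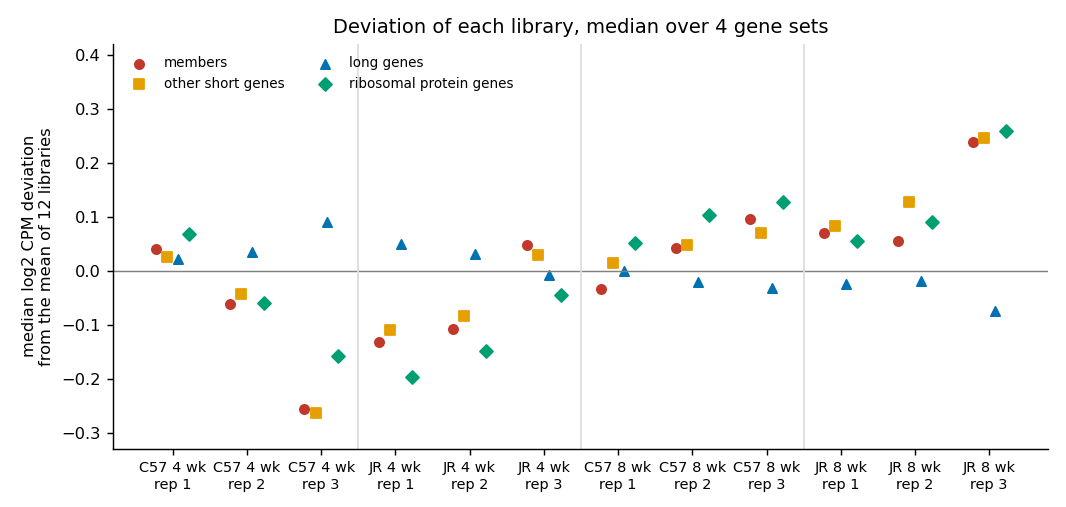
Median deviation of log2 CPM from the mean of the 12 libraries, for the 92 members, 892 other genes of at most 1500 bases, 6374 genes of at least 5000 bases and 92 ribosomal protein genes. Members and other short genes are lowest in C57BL/6J 4-week replicate 3 (-0.26 each) and highest in JR5558 8-week replicate 3 (0.24 and 0.25), and the long genes go the other way.

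Most genes that act with the members did not pass between the strains, which was also so for all genes tested (6.16% called at 4 weeks and 5.18% at 8 weeks). Of 42 assembly factors outside the rule, 40 were tested, with 1 called higher and 1 lower at 4 weeks, and 0 higher and 1 lower at 8 weeks. Lyrm7, a chaperone that stabilises the Rieske protein Uqcrfs1 before it enters complex III, was lower in JR5558 at both ages. It was at 11.0, 11.3 and 12.8 CPM in C57BL/6J and 3.55, 3.76 and 5.204 CPM in JR5558 at 4 weeks, and at 11.6, 9.74 and 10.7 against 3.35, 2.84 and 3.77 CPM at 8 weeks. The groups were apart, with log2 fold changes of -1.49 ± 0.18 (adjusted p = 1.78e-05), or 2.80-fold lower, and -1.69 ± 0.18 (adjusted p = 5.03e-06), or 3.22-fold lower. Its client Uqcrfs1 was at 0.19 (adjusted p = 0.164) and 0.03 (adjusted p = 0.876). Cox18, which inserts the mitochondrially encoded Cox2 into the membrane, was higher at 4 weeks (0.63 ± 0.15, adjusted p = 0.0139). The call was lost with the pigment epithelium score as covariate (0.43, adjusted p = 0.453), a fit that called 1.47% of all genes. It was also lost in a fit of the 4-week groups only (0.63, adjusted p = 0.0925). The same held without C57BL/6J replicate 1 (0.0623), C57BL/6J replicate 2 (0.0827) or JR5558 replicate 1 (0.0686). The log2 fold change of Cox18 was 0.53 to 0.78 over the fits that left out 1 library.

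Among 14 regulators of mitochondrial biogenesis, 1 was called at 4 weeks, against 6.16% of all genes tested. Ppargc1b, a coactivator of mitochondrial gene expression, was at 52.1, 55.0 and 44.7 CPM in C57BL/6J and 70.3, 72.2 and 74.1 CPM in JR5558 (0.51 ± 0.09, adjusted p = 0.00162). It was lower at 8 than at 4 weeks in JR5558 (-0.55 ± 0.09, adjusted p = 0.00459), at 46.7, 52.4 and 49.0 CPM, while the members had a median of 0.17 in that comparison. Both calls use the JR5558 libraries of 4 weeks, the only ones with counts of Ddx3y, so sex cannot be told apart from strain or age in them. Between strains at 8 weeks Ppargc1b was 1.14-fold higher in JR5558 and did not pass. Its relative Ppargc1a, the factors Nrf1 and Gabpa, whose letters were searched above, and Tfam, which acts on mitochondrial DNA, did not pass in any of the 5 comparisons. Of 20 genes of the citrate cycle and pyruvate entry, 11 of import, 10 electron carriers and other subunits, 9 tested uncoupling and carrier genes and 6 hypoxia-linked mitochondrial genes, 0 passed in either strain comparison or with age. Over these comparisons 0.431% to 6.16% of all genes passed, a share at which lists of this size would hold few calls. Surf1, a complex IV assembly factor, rose with age in C57BL/6J (0.43 ± 0.09, adjusted p = 0.0413), a call that held in 1 of 6 fits without a library, the 1 without C57BL/6J 4-week replicate 1 (adjusted p 0.0292 to 0.169 over the 6). The 13 protein-coding transcripts of mitochondrial DNA had medians of -0.09 and -0.02 between strains and 0.22 and 0.25 with age, and 1, mt-Nd3, was called, with age in JR5558 (0.61 ± 0.13, adjusted p = 0.0244). That call was lost without JR5558 4-week replicate 2 (adjusted p = 0.13) or any 1 of the 8-week JR5558 libraries (0.0523, 0.0562 and 0.2). In C57BL/6J 4-week replicate 3, where the nuclear members were lowest, mt-Co1 was at 14950 CPM beside 9675 and 9704 CPM in the other two. It is 1 of the 13, chosen after its values were seen. The 13 were not summarised by library, so these values describe mt-Co1 alone.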

How the data were processed

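RNA from 12 mouse retinas, each from a separate mouse by the series' design text, was captured with poly-T beads and sequenced as paired ends, per the labels' protocols. The deposited table holds counts per gene, and the tools named per the submitters' processing notes are fastp, HISAT2 2.0.5, featureCounts 1.5.0-p3 and the mm10 build, with no role or order given. FPKM values per gene were computed by the authors, per the file headers, with a tool not given in the sources used here. The authors' deposited log2 fold changes and adjusted p-values come from their own test, which the file headers do not name. Whether counting used strand is not settled, so overlapping genes on opposite strands cannot be told apart.

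The counts were fitted here for all 12 libraries with edgeR 4.0.16 (R 4.3.3, quasi-likelihood test, TMM normalization, filterByExpr with a minimum count of 10 and a minimum total of 15), with a group factor of 4 levels. Benjamini-Hochberg adjustment ran over all 18334 genes tested, and calls use an adjusted p under 0.05. Errors after a log2 fold change are standard errors. The p-values set each group difference against the spread between mice within groups, estimated over all 12 libraries. The fit was tested on counts simulated with known fold changes. Alternatives were DESeq2 1.42.0, RLE factors, other filters, protein-coding genes only, no X or Y genes, fits of the groups compared, a pigment epithelium covariate, a replicate block and leaving out each library. Adding the counts of near-identical copies (blastn 2.17.0 on GENCODE M21 transcripts) was chosen after seeing the data. Genes named are the members past the threshold, those with the largest changes, isoform pairs, and genes of other lists past the threshold. Members and lists were chosen with earlier results of these data known, and examples of library behaviour after their values were seen.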

Additional observations from a re-analysis of the deposited data

How the results depend on the processing

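The number of members called depended on the filter, the tool and the samples fitted. Between strains at 8 weeks, 14 were called with no filter on low counts (6.88% of all genes) and 19 when only the groups compared were fitted (12.5%), against 4. With age in JR5558, 27 were called with no filter (4.65% of all genes), 11 with DESeq2, 17 when only the groups compared were fitted and 2 with the replicate block (1.19% of all genes), against 4. With age in C57BL/6J, 1 was called with no filter (2.42% of all genes) and 2 with DESeq2, and for the interaction 2 with no filter, against 0 in each. Leaving out a library gave 2 to 6 calls between strains at 4 weeks, where 4.33% to 6.16% of all genes were called, and medians of -0.0732 to 0.099. With age it gave 0 to 1 calls in C57BL/6J (0.0848% to 0.664% of all genes) and 0 to 11 in JR5558 (0.334% to 3.66% of all genes). With copies added, Ndufs5 at 8 weeks changed sign, to 0.1229 ± 0.126 on the log2 scale (adjusted p = 0.689), a value within 1 standard error of 0. At 4 weeks it kept its sign, at -0.1797 ± 0.1271 (adjusted p = 0.496). The causes of these changes were not tested.

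The replicate block left 3 and 4 members called between strains at 4 and 8 weeks, against 5.51% and 4.61% of all genes. Replicate numbers gave no sign of pairing. Deviations of same-numbered libraries correlated at -0.114 to 0.0867 and those of differently numbered ones at -0.0832 to 0.114, and 2 of 12 libraries were closest to 1 with their own number. These values cannot show that there was no pairing. The median standard error of a member's log2 fold change was 0.11 with 3 mice per group, which limits the changes that could be called, and Cox8b, at 1.05 to 6.34 CPM, rests on few counts.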
